A study of Caenorhabditis elegans with 16 samples.

Results

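Cytochromes P450 are haem-containing monooxygenases that sit mainly in the membrane of the endoplasmic reticulum and insert oxygen into lipophilic substrates, among them steroids, fatty acids and xenobiotics. In detoxification they carry out phase I, which makes a compound reactive enough for conjugation by phase II enzymes and export by transporters such as the P-glycoproteins. In *C. elegans* the genes are named *cyp-*, with a number for the family and a letter for the subfamily, and many lie in tandem arrays and are expressed in the intestine.

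The genes described here were all rows of the deposited expression table whose name begins with *cyp-*, chosen by name alone. These were 44 of 8348 rows, in 20 subfamilies of 13 families. Ensembl release 115 lists 74 protein-coding *cyp-* genes, of which 39 had a row, and the other 5 rows are annotated as pseudogenes by RefSeq (*cyp-25A5*, *cyp-29A1*, *cyp-31A1*, *cyp-34A3* and *cyp-35D2*). The *cyp-* genes without a row were not analysed here.

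Whole animals on day 1 of adulthood, hatched within a common window of 1 hr and kept for 6 hr on plates with or without tunicamycin (TM), gave 16 RNA-seq libraries in 4 groups of 4 replicates. The groups were WT (N2) under vehicle, WT under 10 µg/mL TM, *osm-3(dh441)* mutants under vehicle, and *osm-3(dh441)* mutants under 10 µg/mL TM. TM blocks N-linked glycosylation and thereby stresses the ER, and *osm-3* encodes a kinesin of sensory cilia whose mutants are dye filling defective. The mutants carried 1 allele, which introduces a premature stop. The study describes the replicates as biological. No row for *osm-3* was used here, so the genotype was not checked against its own transcript, and in RNA from whole worms fewer cells of a type and less RNA per cell cannot be told apart.

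Libraries held 4173301 to 8144875 reads on named genes, and 3607 to 7937 of these fell on the 44 *cyp-* rows. In CPM of reads on named genes the *cyp-* rows together reached 955 ± 63.9 (SD, n = 4) in WT under vehicle, 1029 ± 118 (SD, n = 4) in WT under TM, 870 ± 86.2 (SD, n = 4) in *osm-3* under vehicle and 930 ± 126 (SD, n = 4) in *osm-3* under TM, with overlapping libraries. Differences were tested for 21 *cyp-* rows. In these the mean of the 16 log2 values exceeded the lowest value of the table, which is a count of 0, by 1 or more. The rows nearest to this limit were *cyp-33C4* at 1.097 above the lowest value inside it, and *cyp-35D1* at 0.92 and *cyp-13B1* at 0.84 outside it. One library stood apart among the weakly expressed rows. WT under TM replicate 4 had the highest normalized count of all 16 libraries for 14 of the 23 rows below the limit, with 494 reads on these rows against 174 to 382 in the others. Without this library the same 4 genes were called between TM and vehicle in WT, and the counts of the other comparisons were 2 for TM in *osm-3* mutants, 3 and 2 between genotypes under vehicle and TM, and 0 for the difference between responses. The shares of all genes called without this library are not given, so these counts show the dependence on this library alone.

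Normalized to exon length, *cyp-25A2* was the most abundant of the 39 genes with an annotated exon length, at 490 normalized reads per kb over all libraries. It was followed by *cyp-34A8* at 213, *cyp-14A5* at 210, *cyp-33A1* at 199.7 and *cyp-35A2* at 195 normalized reads per kb. In the middle of the range were *cyp-33E1* at 113.6, *cyp-34A9* at 62.4 and *cyp-36A1* at 48.99 normalized reads per kb, while *cyp-33C1*, *cyp-33C6* and *cyp-35A1* had 0.669, 0.628 and 0.244. Of the 44 rows, 32 had reads in every library. By share of reads, without correction for length, the *cyp-31A1* row took 24.2% of *cyp-* reads and the 5 *cyp-25A* rows 22.02%. *cyp-31A1* is annotated as a pseudogene with close relatives in the *cyp-31A* subfamily, whose members act in eggshell formation, so reads that fit several copies make its count uncertain.

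**Figure D1:**
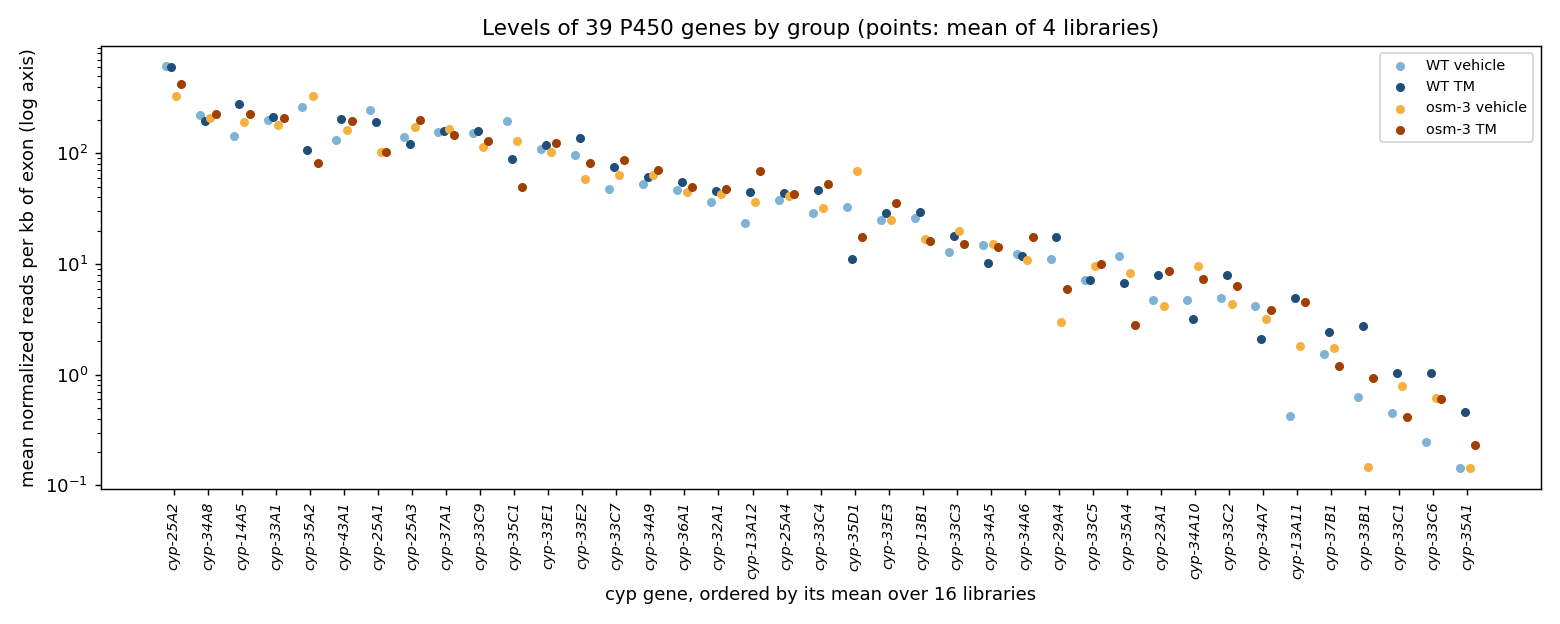
Mean normalized reads per kb of exon (log axis) for the 39 *cyp-* genes with an annotated exon length, ordered by their mean over 16 libraries, with 1 point for each group mean of 4 libraries. Levels ran from 490 for *cyp-25A2* to 0.244 for *cyp-35A1*, and the group means stand visibly apart for *cyp-35A2*, *cyp-35C1*, *cyp-35D1*, *cyp-25A1* and *cyp-29A4*, among others. The means of the weakly expressed *cyp-13A11* (0.42 to 4.95) and *cyp-33B1* (0.148 to 2.76) spread widely too. The points carry no SD.

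Chromosome V carried 27 of the 44 rows, chromosome III 6, chromosome IV 5, chromosome X 3, chromosome II 2 and chromosome I 1. The largest tandem array, with gaps under 5000 bases, held *cyp-34A5* to *cyp-34A10* on chromosome V between 3955701 and 3972991 (WBcel235). Levels differed strongly along it, since *cyp-34A8* had 213 normalized reads per kb, *cyp-34A9* had 62.4, and the other 4 genes had 3.31 to 13.6. In the array of *cyp-33C4*, *cyp-33C3*, *cyp-33C5*, *cyp-33C6* and *cyp-33C7* on chromosome V between 2236140 and 2252591, *cyp-33C7* had 68.8 and *cyp-33C4* had 40.2 normalized reads per kb, and the 3 genes between them 0.628 to 16.5. The neighbours *cyp-35A1* and *cyp-35A2*, on chromosome V between 7359929 and 7364182, had 0.244 and 195 normalized reads per kb. Near-identical copies can share reads, and how the counts were divided between such copies was not tested.

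The comparison of TM with vehicle asked how a 6 hr exposure moved the P450 genes in each genotype. Both tested *cyp-35* genes fell in WT. *cyp-35A2* passed the test in both genotypes, dropping to 40.5% of its vehicle level in WT and to 24.8% in *osm-3* mutants, and *cyp-35C1* dropped to 46.1% in WT. *cyp-14A5* and *cyp-43A1* rose in WT, 1.95-fold and 1.54-fold in mean normalized reads. Thus 4 of 21 tested *cyp-* genes passed the test in WT (limma, adjusted p under 0.05), beside 1.56% of all 4115 genes tested, and 1 of 21 passed in *osm-3* mutants, beside 0.0729%. The median log2 difference of the 21 genes was 0.05 in WT and 0.09 in *osm-3* mutants, beside -0.02 and -0.04 over all genes tested.

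*cyp-35A2* lies on chromosome V between 7362319 and 7364182 on the minus strand, belongs to the subfamily that many xenobiotics induce in the worm intestine, and has been linked to fat storage by knockdown. Its log2 values, on the variance-stabilized scale of the table, were 9.13, 9.71, 9.09 and 8.90 in WT under vehicle and 8.10, 8.21, 8.63 and 8.65 in WT under TM. In *osm-3* mutants they were 9.41, 9.47, 9.56 and 9.45 under vehicle and 8.38, 8.42, 8.19 and 7.79 under TM. All TM libraries lay below all vehicle libraries of the same genotype, and the 4 *osm-3* vehicle libraries were the most alike. Libraries were apart in this direction for 1.97% of all tested genes in WT and 1.09% in *osm-3* mutants. In normalized reads the means were 418 ± 155 and 170 ± 60.1 in WT, and 520 ± 30.4 and 129 ± 47.5 in *osm-3* mutants (vehicle and TM, SD, n = 4). The log2 difference was -0.81 ± 0.17 (SE) in WT (limma, adjusted p = 0.0126) and -1.28 ± 0.17 (SE) in *osm-3* mutants (adjusted p = 0.00193), where *cyp-35A2* was the 1 gene that passed in the downward direction, 0.0243% of all genes tested. The call in WT was lost without WT under TM replicate 1 (adjusted p = 0.0614) or replicate 2 (adjusted p = 0.0525), while that in *osm-3* mutants held in each of 25 alternatives, with adjusted p up to 0.0157.

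*cyp-35C1*, on chromosome V between 13896663 and 13898487, is likewise inducible by xenobiotics in *C. elegans*. Its log2 values were 8.70, 9.10, 8.98 and 8.82 in WT under vehicle and 7.95, 8.10, 8.21 and 8.67 under TM. In *osm-3* mutants they were 8.42, 8.58, 8.68 and 8.52 under vehicle and 7.94, 8.0, 7.90 and 7.64 under TM. Again no TM library reached the vehicle libraries of its genotype, although WT under TM replicate 4, at 8.67, came close to the lowest. The log2 difference was -0.67 ± 0.13 (SE) in WT (limma, adjusted p = 0.00814) and -0.68 ± 0.13 (SE) in *osm-3* mutants, where the adjusted p of 0.0509 missed the threshold. In *osm-3* mutants the gene passed in 10 of 25 alternatives, including the replicate block described below (adjusted p = 0.00591), so the side of the threshold depended on the fit. Among these were fits without WT under vehicle replicate 4 or WT under TM replicate 1 or 4. Those libraries lie outside this comparison, and the difference stayed at -0.68.

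**Figure D2:**
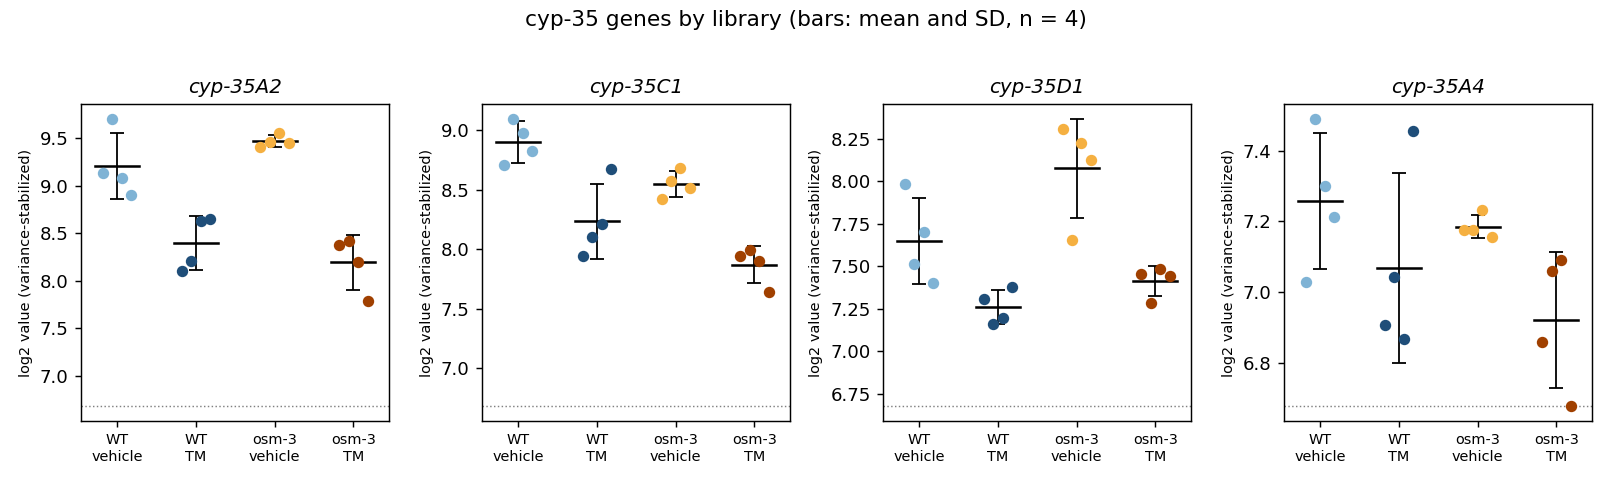
Variance-stabilized log2 values of *cyp-35A2*, *cyp-35C1*, *cyp-35D1* and *cyp-35A4* in each library of the 4 groups, with the mean and SD (n = 4) as bars and the value of a count of 0 as a dotted line. For *cyp-35A2*, *cyp-35C1* and *cyp-35D1* the TM libraries lie below the vehicle libraries of their genotype, while for *cyp-35A4* they do so in *osm-3* mutants and overlap in WT. Libraries were apart in this direction for 1.97% of all tested genes in WT and 1.09% in *osm-3* mutants. These shares do not cover rows below the limit for testing, such as *cyp-35D1* and *cyp-35A4*.

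The other *cyp-35* rows lay below the limit for testing. *cyp-35D1*, which hydroxylates the anthelmintic thiabendazole in *C. elegans*, had 102, 37, 50 and 26 reads in WT under vehicle and 23, 14, 15 and 26 reads under TM. In *osm-3* mutants it had 165, 59, 76 and 117 reads under vehicle and 37, 18, 23 and 28 under TM. After normalization the TM libraries lay below the vehicle libraries in both genotypes, with log2 differences of -0.39 ± 0.12 (SE) in WT and -0.66 ± 0.12 (SE) in *osm-3* mutants. In a fit without the limit these gave adjusted p = 0.201 and 0.0578 (limma), so neither passed. *cyp-35A4* differed by -0.19 ± 0.12 (SE) in WT and by -0.26 ± 0.12 (SE) in *osm-3* mutants (adjusted p = 0.841 and 0.489 in the same fit). *cyp-35A1* had 0 to 3 reads in each library. The pseudogene row *cyp-35D2* had reads in WT under TM alone, 1, 1, 0 and 8, the last in the replicate 4 that stood apart above. Their differences in WT were 0.03 and 0.16, and neither passed (adjusted p = 0.979 and 0.412 in the same fit). Of the 6 *cyp-35* rows, 4 thus had lower mean values under TM than under vehicle in both genotypes, and the 2 rows with few reads did not.

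The markers of the intestine, where *cyp-35* genes are expressed, were examined beside these results. Of 13 listed intestinal genes 8 had a row and 7 were tested, and 0 passed in either TM comparison with limma (0 also at an unadjusted p under 0.05), with median log2 differences of 0.00 in WT and -0.10 in *osm-3* mutants. Their summed normalized reads ranged from 143519 to 154408 in WT under vehicle and 99360 to 150633 in WT under TM, and from 120462 to 169405 in *osm-3* mutants under vehicle and 67532 to 140451 under TM. None of the 8 was at 0 reads. Of 40 tested collagen genes, markers of the epidermis, 5 were lower under TM in WT, beside 0.729% of all genes in this direction, and 0 were higher. In *osm-3* mutants 0 passed in either direction with limma, while 15 had an unadjusted p under 0.05, all higher under TM, beside 4.16% of all genes in this direction. Their differences lay below 0 for 39 of 40 in WT (median -0.31) and above 0 for 31 of 40 in *osm-3* mutants (median 0.21). Of 8 listed germline genes 2 were tested, *cgh-1* and *glp-1*, and 0 passed in either TM comparison. They differed by -0.22 and -0.17 in WT and by -0.52 and -0.45 in *osm-3* mutants. In the mutants both had an unadjusted p under 0.05 (limma), beside 7.83% of all genes in this direction. The muscle genes *unc-15* and *unc-54* differed by -0.14 and -0.27 in WT and -0.36 and -0.58 in *osm-3* mutants, and 0 passed. The part of these markers in the result was not tested.

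*cyp-14A5* showed the largest increase among tested P450 genes in WT. Its log2 values were 8.60, 8.57, 8.70 and 8.72 under vehicle and 9.39, 9.21, 9.12 and 9.39 under TM in WT. In *osm-3* mutants they were 8.95, 9.20, 8.83 and 8.65 under vehicle and 9.17, 9.12, 9.13 and 8.83 under TM. The groups were apart in WT, as for 2.31% of all tested genes in this direction, and overlapped in *osm-3* mutants. In WT TM raised it by a log2 difference of 0.63 ± 0.11 (SE, limma, adjusted p = 0.00251, held in each of 25 alternatives) and 0.15 ± 0.11 (SE) in *osm-3* mutants (adjusted p = 0.428). *cyp-14A5* maps to chromosome V between 5421018 and 5423282 on the minus strand.

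*cyp-43A1*, the sole family 43 gene in the table, is related to the mammalian CYP3A enzymes, as are the *cyp-13A* and *cyp-25A* genes. Its log2 values were 8.62, 8.57, 8.75 and 8.69 in WT under vehicle and 9.11, 8.96, 9.12 and 9.01 under TM. In *osm-3* mutants they were 8.88, 8.91, 8.77 and 8.78 under vehicle and 9.11, 8.86, 9.22 and 8.78 under TM. The WT groups were apart, as for 2.31% of all tested genes in this direction, and the *osm-3* groups overlapped. TM minus vehicle gave 0.40 ± 0.09 (SE) in WT (limma, adjusted p = 0.0225) and 0.16 ± 0.09 (SE) in *osm-3* mutants (adjusted p = 0.371). Leaving out WT under vehicle replicate 1, 2 or 4, or WT under TM replicate 1 or 3, ended the WT call, with adjusted p up to 0.102.

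Whether the TM response differed between the genotypes was tested as an interaction. With limma 0 of 21 *cyp-* genes passed, beside 0.486% of all genes tested, and 1 had an unadjusted p under 0.05, beside 4.91%. With limma voom on the recovered reads 0 passed as well. That 1 gene was *cyp-14A5*, at -0.47 ± 0.15 (SE, *osm-3* response minus WT response, adjusted p = 0.411). For *cyp-35A2* the difference was -0.47 with a 95% interval from -0.96 to 0.02, and for *cyp-43A1* it was -0.24 with an interval from -0.50 to 0.02. For *cyp-35C1* it was -0.01 with an interval from -0.39 to 0.37. These intervals leave room for differences as large as many of the responses themselves.

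**Figure D3:**
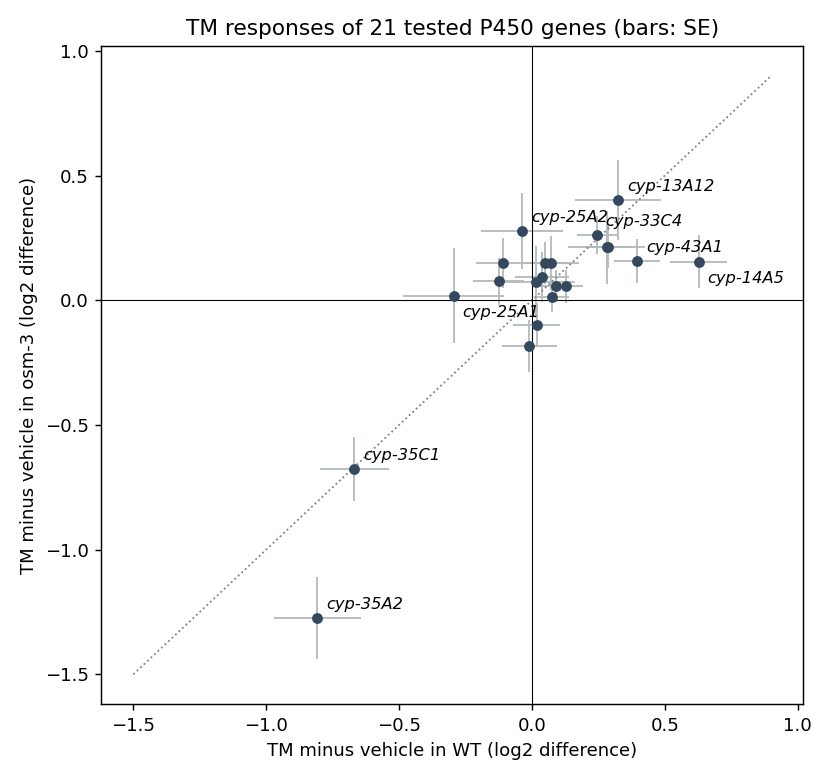
Log2 difference between TM and vehicle in WT (horizontal axis) and in *osm-3* mutants (vertical axis) for the 21 tested *cyp-* genes, with SE bars and a dotted line of equal response. *cyp-35A2* and *cyp-35C1* lie at the lower left, at -0.81 and -1.28 and at -0.67 and -0.68, and *cyp-14A5* lies to the right at 0.63 and 0.15.

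Libraries with the same replicate number deviated together within each genotype, and a fit with the number as a block within genotype called more genes. In WT 8 of 21 *cyp-* genes then passed (6 higher and 2 lower), beside 5.93% of all genes. In *osm-3* mutants 5 of 21 passed (3 higher and 2 lower), beside 8.75%. The genes added were *cyp-13A12*, *cyp-33C4*, *cyp-33C7* and *cyp-33E2* in WT, and *cyp-13A12*, *cyp-33C4*, *cyp-33C7* and *cyp-35C1* in *osm-3* mutants. For the interaction, *cyp-14A5* passed in this fit (limma, adjusted p = 0.0361), beside 1.6% of all genes.

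Among the added genes, *cyp-33E2*, expressed in the pharynx of *C. elegans*, makes eicosanoids and affects pharyngeal pumping, and *cyp-13A12* makes eicosanoids that act in the response to reoxygenation after hypoxia. *cyp-13A12* had log2 values of 7.44, 7.69, 7.84 and 7.15 in WT under vehicle and 7.89, 7.99, 8.12 and 7.42 under TM, and 7.45, 8.11, 7.71 and 7.74 in *osm-3* mutants under vehicle and 7.99, 8.14, 8.35 and 8.14 under TM. The groups overlapped in both genotypes, but in both genotypes each TM library was higher than its same-numbered vehicle library. The log2 differences were 0.32 ± 0.16 (SE) in WT and 0.40 ± 0.16 (SE) in *osm-3* mutants (limma, adjusted p = 0.613 and 0.362 without the block, 0.0360 and 0.0194 with it).

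*cyp-33C4* was 7.68, 7.52, 7.72 and 7.55 in WT under vehicle and 7.82, 7.85, 7.90 and 7.89 under TM, and 7.62, 7.71, 7.74 and 7.63 in *osm-3* mutants under vehicle and 7.88, 7.92, 8.16 and 7.77 under TM, all in log2 values. TM and vehicle libraries were apart in both genotypes, although neither difference, 0.24 ± 0.08 (SE) and 0.26 ± 0.08 (SE), passed without the block (limma, adjusted p = 0.134 and 0.362). Libraries of both groups were apart for 4.28% of all tested genes in WT and for 2.84% in *osm-3* mutants. *cyp-33C7*, at the other end of the same array, differed by 0.29 ± 0.08 (SE) in WT and 0.21 ± 0.08 (SE) in *osm-3* mutants (adjusted p = 0.110 and 0.362 without the block, 0.00735 and 0.0410 with it), and all 8 same-numbered pairs were higher under TM. *cyp-33E2* differed by 0.28 ± 0.15 (SE) in WT (adjusted p = 0.648 without the block, 0.0198 with it). All 6 tested *cyp-33* genes had differences above 0 in both genotypes, from 0.04 to 0.29 in WT and from 0.09 to 0.26 in *osm-3* mutants, while 0 of 6 passed in the fit without the block. Most tested P450 genes shared this direction, since 14 of all 21 lay above 0 in WT and 17 in *osm-3* mutants. Of the *cyp-33* rows below the limit for testing, *cyp-33C1*, *cyp-33C3* and *cyp-33C6* had differences below 0 in *osm-3* mutants (-0.03, -0.10 and -0.02). The remaining differences of these rows, and all in WT, lay above 0.

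The comparison of *osm-3* mutants with WT asked which P450 genes differed before and under TM. In the fit without a block, 2 of 21 *cyp-* genes were lower in *osm-3* mutants under vehicle, *cyp-25A1* and *cyp-25A2*, beside 4.28% of all genes in this direction. Under TM 1 of 21 was higher, *cyp-25A3*, beside 9.5%. The share called under vehicle, 2 of 21, is to be read against that background, and that under TM did not exceed it. The median log2 differences of the 21 genes were 0.05 under vehicle and -0.06 under TM, beside -0.04 and -0.10 over all genes tested. All 3 called genes are neighbours on chromosome III between 3832591 and 3839735, *cyp-25A1* and *cyp-25A2* on the plus strand and *cyp-25A3* on the minus strand.

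*cyp-25A1*, between 3832591 and 3834586, had log2 values of 9.01, 8.94, 9.31 and 9.44 in WT under vehicle and 8.63, 8.58, 8.31 and 8.05 in *osm-3* mutants under vehicle. Under TM it had 8.42, 8.84, 8.72 and 9.54 in WT and 8.58, 8.48, 8.45 and 8.13 in *osm-3* mutants. The genotypes were apart under vehicle and overlapped under TM, where the WT libraries spread most. Under vehicle the libraries of the 2 genotypes were apart for 20.3% of all tested genes, and for 11% with *osm-3* mutants lower. The log2 difference was -0.79 ± 0.19 (SE) under vehicle (limma, adjusted p = 0.01003, 2.39-fold lower in mean normalized reads) and -0.47 ± 0.19 (SE) under TM (adjusted p = 0.0878).

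*cyp-25A2*, between 3835221 and 3837211, had log2 values of 10.12, 10.09, 10.43 and 10.04 in WT under vehicle and 9.51, 9.70, 9.41 and 9.14 in *osm-3* mutants under vehicle. Under TM it had 9.69, 10.38, 10.12 and 10.34 in WT and 9.86, 9.76, 9.87 and 9.39 in *osm-3* mutants. The genotypes were again apart under vehicle and overlapped under TM through WT replicate 1. The log2 difference was -0.73 ± 0.15 (SE) under vehicle (limma, adjusted p = 0.00345, 1.88-fold lower in mean normalized reads) and -0.41 ± 0.15 (SE) under TM (adjusted p = 0.0654). Without WT under TM replicate 1 the difference under TM passed for *cyp-25A2* (adjusted p = 0.0112) and for *cyp-25A1* (adjusted p = 0.0293).

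*cyp-25A3*, between 3837538 and 3839735, went the other way. Its log2 values were 8.46, 8.64, 8.73 and 8.66 in WT under TM and 9.13, 9.12, 9.21 and 8.83 in *osm-3* mutants under TM. Under vehicle they were 8.61, 8.84, 8.89 and 8.59 in WT and 8.86, 9.13, 8.92 and 8.78 in *osm-3* mutants. The genotypes were apart under TM and overlapped under vehicle. Under TM the libraries of the 2 genotypes were apart for 16.1% of all tested genes, and for 7.53% with *osm-3* mutants higher. The log2 difference was 0.45 ± 0.10 (SE) under TM (limma, adjusted p = 0.00424, 1.64-fold higher in mean normalized reads) and 0.19 ± 0.10 (SE) under vehicle, which did not pass. The fourth tested gene of the subfamily, *cyp-25A4*, differed by 0.05 under vehicle and -0.01 under TM. The calls for *cyp-25A1*, *cyp-25A2* and *cyp-25A3* held in each alternative that gave them a value.

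**Figure D4:**
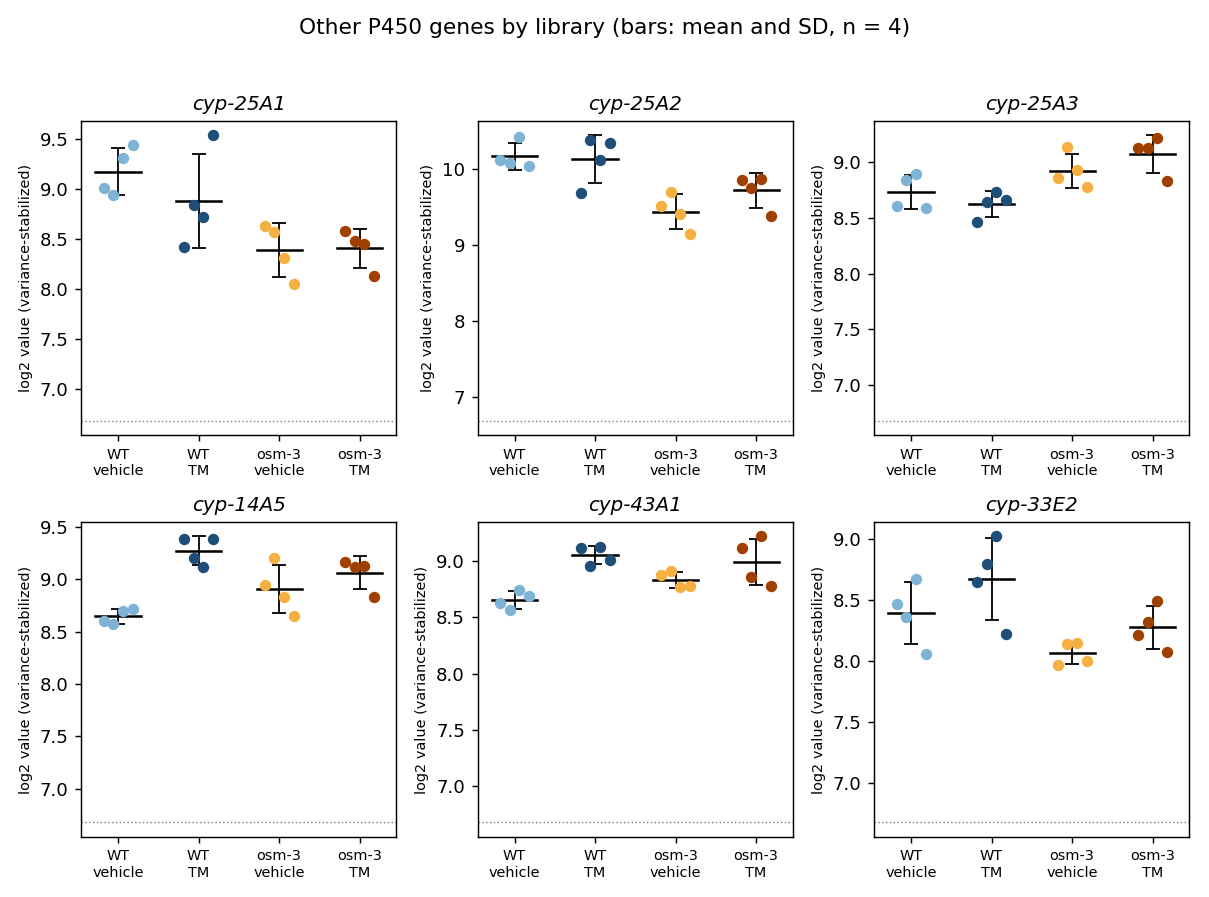
Variance-stabilized log2 values of *cyp-25A1*, *cyp-25A2*, *cyp-25A3*, *cyp-14A5*, *cyp-43A1* and *cyp-33E2* in each library of the 4 groups, with the mean and SD (n = 4) as bars and the value of a count of 0 as a dotted line. Under vehicle all 4 *osm-3* libraries lie below all 4 WT libraries for *cyp-25A1* and *cyp-25A2*, and under TM all 4 *osm-3* libraries lie above those of WT for *cyp-25A3*. Libraries were apart in these directions for 11% of all tested genes under vehicle and 7.53% under TM.

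With the replicate number as a block shared by all groups, 4 of 21 *cyp-* genes were lower in *osm-3* mutants under vehicle, beside 8.09% of all genes in this direction. These were *cyp-25A1*, *cyp-25A2*, *cyp-33C9* and *cyp-33E2*. This block was fitted over the TM groups as well, where same-numbered libraries of the genotypes did not all deviate together. The calls for *cyp-33C9* and *cyp-33E2* carry that limit. *cyp-33E2* had log2 values of 8.47, 8.36, 8.67 and 8.06 in WT and 7.97, 8.14, 8.15 and 8.0 in *osm-3* mutants under vehicle, and 8.65, 8.80, 9.02 and 8.22 in WT and 8.22, 8.32, 8.49 and 8.07 in *osm-3* mutants under TM. Under vehicle the *osm-3* library was the lower of each same-numbered pair. In both conditions the genotypes overlapped through WT replicate 4. The difference was -0.33 ± 0.15 (SE) under vehicle (limma, adjusted p = 0.179 without the block, 0.0138 with it) and -0.40 ± 0.15 (SE) under TM (adjusted p = 0.0617). The difference under TM passed without WT under TM replicate 4 (adjusted p = 0.00665) or WT under vehicle replicate 4 (adjusted p = 0.0473). The latter library is not part of this comparison, and without it the difference stayed at -0.40. *cyp-33C9* differed by -0.24 ± 0.10 (SE) under vehicle (adjusted p = 0.163 without the block, 0.0448 with it).

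*cyp-35C1* had differences of -0.35 ± 0.13 (SE) under vehicle and -0.36 ± 0.13 (SE) under TM between *osm-3* mutants and WT, and neither passed (limma, adjusted p = 0.0933 and 0.0553). That under vehicle passed without WT under TM replicate 4 (adjusted p = 0.0251), and that under TM without WT under TM replicate 1 (adjusted p = 0.0214). WT under TM replicate 4 is not part of the vehicle comparison. Without it the difference stayed at -0.35, and only the shared spread and the adjustment changed. *cyp-35A2* differed by 0.26 ± 0.17 (SE) under vehicle and -0.20 ± 0.17 (SE) under TM, with overlapping libraries in both. Of the 23 rows below the limit, a fit of all named rows called 0 between TM and vehicle in either genotype and 2 in each comparison of genotypes. It called *cyp-35D1* higher (0.43 ± 0.12 SE, limma, adjusted p = 0.0362) and *cyp-29A4* lower (-0.29 ± 0.09 SE, adjusted p = 0.0477) in *osm-3* mutants under vehicle, beside 8.54% of all rows. Under TM the same fit called *cyp-13B1* (-0.24 ± 0.06 SE, adjusted p = 0.0159) and *cyp-29A4* (-0.32 ± 0.09 SE, adjusted p = 0.0195) lower, beside 14.2%. *cyp-29A4* had 18.7 mean normalized reads in WT and 5.07 in *osm-3* mutants under vehicle, and 29.7 and 10.0 under TM.

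Other gene groups moved with genotype at the same time. All 9 tested major sperm protein genes (*msp-*) were higher in *osm-3* mutants under both conditions, with median log2 differences of 1.13 under vehicle and 1.32 under TM. Summed over 10 rows they had 808 to 1287 normalized reads in WT and 3419 to 5699 in *osm-3* mutants under vehicle, and 692 to 992 and 2987 to 6464 under TM. Among the *col-* genes for collagens 40 were tested. In *osm-3* mutants 8 of these were higher under vehicle, beside 6.37% of all genes in this direction, and 37 under TM, beside 9.5%, with 0 lower in either. Their summed normalized reads were 509720 to 677687 in WT and 682088 to 828998 in *osm-3* mutants under vehicle, and 394802 to 525676 and 652042 to 850959 under TM. Of the 7 tested intestinal genes, the proteases *cpr-1* (-0.53, adjusted p = 0.0232) and *cpr-6* (-0.38, adjusted p = 0.0180) were lower in *osm-3* mutants under TM in limma, beside 9.74% of all genes. Of 3 tested neuronal genes, *egl-3* was higher in *osm-3* mutants under vehicle (0.42, adjusted p = 0.0165) and *flp-1* under TM (0.55, adjusted p = 0.00866) in limma, beside 6.37% and 9.5% of all genes. The remaining neuronal gene, *unc-18*, went slightly the other way and did not pass, at -0.046 under vehicle and -0.053 under TM. The muscle genes *unc-15* (0.46) and *unc-54* (0.66) did not pass under vehicle (limma, adjusted p = 0.116 and 0.164), although both had an unadjusted p under 0.05, beside 11.2% of all genes in this direction. The part of these groups in the *cyp-25A* results was not tested.

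**Figure D5:**
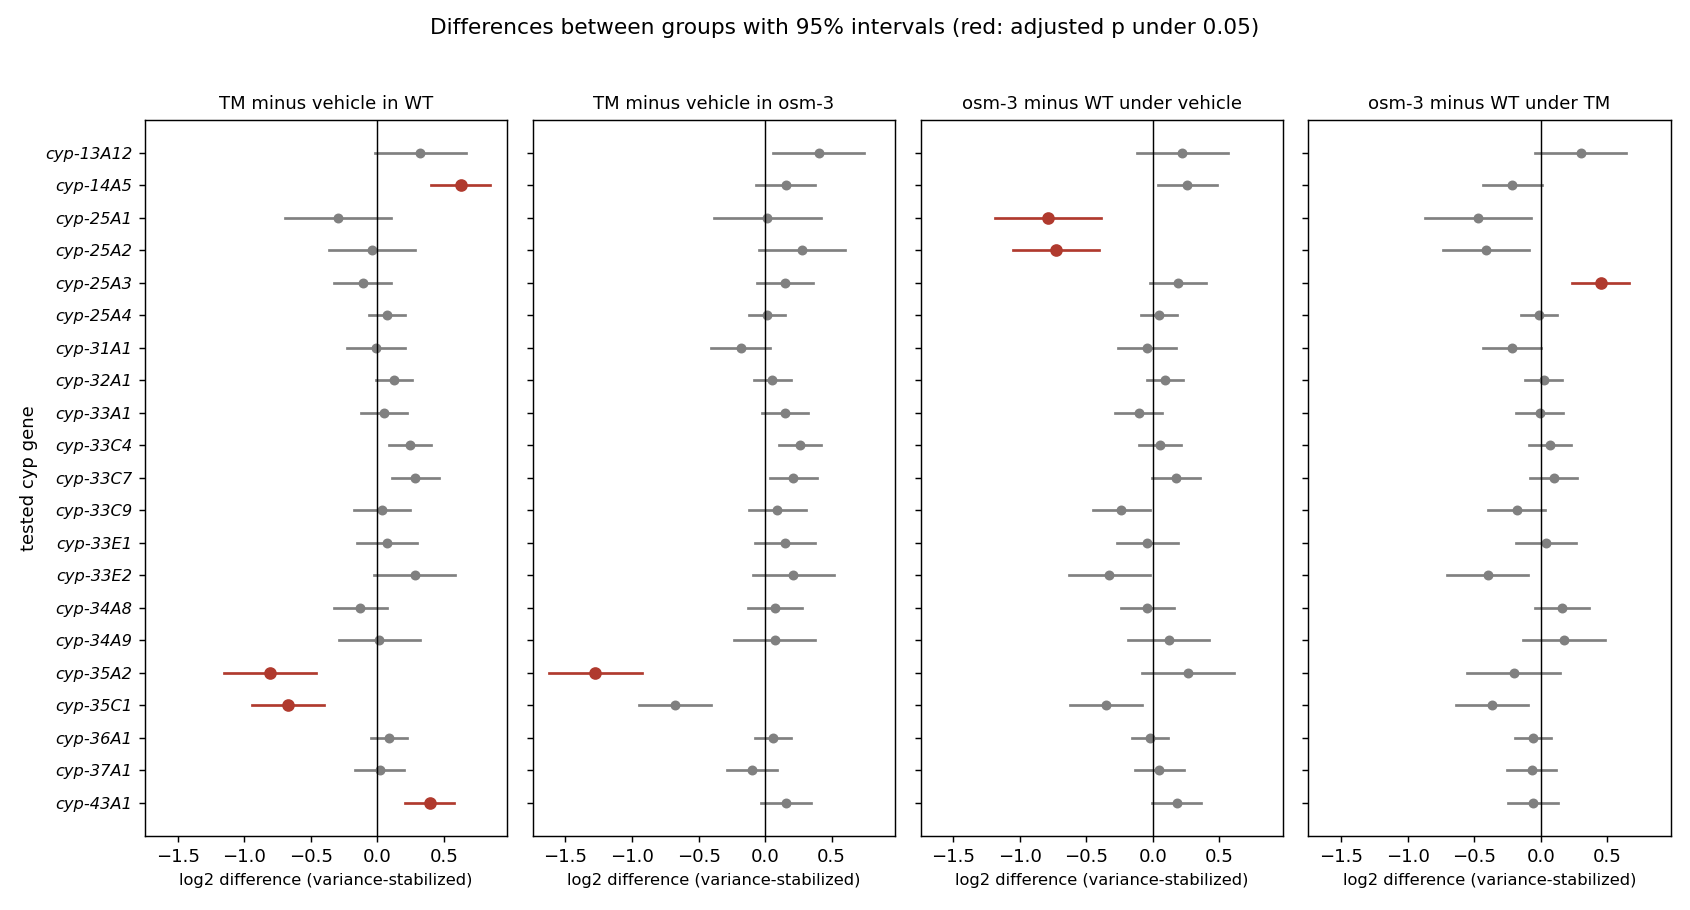
Log2 differences of the 21 tested *cyp-* genes in the 4 comparisons between groups, each with its 95% interval, with red for an adjusted p under 0.05. The 8 red points are *cyp-14A5*, *cyp-35A2*, *cyp-35C1* and *cyp-43A1* in the WT panel, *cyp-35A2* in the *osm-3* panel, *cyp-25A1* and *cyp-25A2* under vehicle and *cyp-25A3* under TM.

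The remaining 14 of 21 tested genes passed in 0 of the 5 comparisons in the fit without a block. Their differences between groups ran from -0.40 to 0.40, and the lowest adjusted p was 0.0617 (limma). *cyp-36A1*, which acts downstream of EGL-9 and HIF-1 in worm behaviour, differed by 0.09 in WT and 0.06 in *osm-3* mutants between TM and vehicle. The abundant *cyp-34A8* differed by -0.13 and 0.08, *cyp-33A1* by 0.05 and 0.15, and *cyp-37A1* by 0.02 and -0.10. *cyp-31A1* differed by -0.01 and -0.18. The 95% intervals of *cyp-36A1* stayed within -0.08 and 0.23 for TM, whereas those of *cyp-34A9* reached from -0.29 to 0.32 in WT, a wider range.

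Genes around the P450 enzymes were taken from lists of partners, regulators and substrate pathways. Of 10 listed partners of the P450 reaction and haem supply 3 had a row, and the 2 tested, *cytb-5.1* for cytochrome b5 and the haem transporter gene *hrg-4*, passed in 0 of 5 comparisons, with differences between groups from -0.14 to 0.09. Of 18 listed regulators 9 were tested. *nhr-176*, a nuclear hormone receptor gene needed in *C. elegans* for the induction of *cyp-35D1* by thiabendazole, was higher in *osm-3* mutants under vehicle (0.28 ± 0.08 SE, limma, adjusted p = 0.0400), beside 6.37% of all genes in this direction. *nhr-8*, the nuclear hormone receptor gene examined in the study for TM resistance, differed by 0.24 ± 0.11 (SE) in WT and 0.30 ± 0.11 (SE) in *osm-3* mutants between TM and vehicle (adjusted p = 0.523 and 0.362) and did not pass in any comparison of the fit without a block. Of 4 tested genes of polyunsaturated fatty acid and eicosanoid metabolism, *elo-2*, a fatty acid elongase gene, was lower in *osm-3* mutants under TM (-0.40, limma, adjusted p = 0.0369), beside 9.74% of all genes in this direction.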

How the data were processed

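After trimming, the authors assigned reads to Ensembl cDNA of build WBcel235 (kallisto 0.43.0-1, stranded), summed the counts by gene, and deposited for 16 libraries a table of DESeq2 1.16.1 variance-stabilized log2 values. This scale compresses differences, most of all for weakly expressed genes. It also does so for more abundant genes such as *cyp-35A2* and *cyp-25A1*, so its log2 differences are smaller than the log2 of the fold changes in normalized reads. The deposited tables of the authors' own comparisons hold fold changes and p-values and were not used. The log2 values were inverted to reads, and 100% came out within 0.01 of a whole number. Two-sided tests used limma 3.58.1 under R 4.3.3 (moderated by eBayes with a mean-variance trend, a mean for each of 4 groups, 12 residual degrees of freedom) over 4115 genes, adjusted by Benjamini-Hochberg at 0.05, without a block. The median SE of a difference was 0.10. Exon lengths came from Ensembl 115.

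Named were the *cyp-* genes past the threshold, the tested *cyp-35* genes, and those with the largest differences until 12 were named. *cyp-35D1*, *cyp-35A4*, *cyp-29A4*, *cyp-13B1* and the uncalled genes given with values were chosen after their values were seen. The members and gene lists were chosen with earlier results of these data known. Same-numbered libraries deviated from their group means together, with correlations of 0.25 to 0.86 within genotypes and of 0.18 to 0.50 between the vehicle groups, but of -0.04 to 0.64 between the TM groups, so the replicate numbers of the labels paired libraries within genotype and under vehicle, and the blocked fits are given there. The shared block used for the vehicle comparison was nevertheless fitted over all libraries, the TM groups included.

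Alternatives were no or a stricter filter, only the groups compared, blocks, library weights, quantile normalization, median centring, log2 of the normalized count plus 1, voom, and leaving out each library.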

Additional observations from a re-analysis of the deposited data

Results flagged for a closer look

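Values far from the other 3 libraries of their group were sought in 52 groups of 4, of which chance flags about 1 in 20. In 2 groups 1 library lay this far out. The reads on *cyp-* genes in WT under TM replicate 1 were 854 CPM, against 1064 to 1105 in the other 3 libraries. *cyp-14A5* in *osm-3* mutants under TM replicate 4 had a log2 value of 8.83, against 9.12 to 9.17 in the other 3.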

How the results depend on the processing

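No value changed its direction among those called. In WT, the number of *cyp-* genes past the threshold between TM and vehicle was 4, but 8 with the replicate block within genotype, 8 with library weights, 0 with the stricter filter, which tested 2 *cyp-* genes, and 2 to 4 with 1 library left out (2 without WT under TM replicate 1). In *osm-3* mutants it was 1, but 5 with the replicate block within genotype, 2 with the shared block, 11 with weights, 0 with the stricter filter, 2 each with the groups compared alone, quantile normalization or log2 of the normalized count plus 1, and 1 to 4 with 1 library left out (4 without *osm-3* under TM replicate 4, 2 without WT under vehicle replicate 4 or WT under TM replicate 1 or 4). Between genotypes under vehicle it was 2, but 4 without a filter, 1 with the stricter filter, 4 with the replicate block, 9 with weights and 2 to 3 with 1 library left out. Under TM it was 1, but 3 without a filter, 0 with the stricter filter, 4 with the replicate block, 4 with weights, 3 with quantile normalization, 2 with log2 of the normalized count plus 1, and 1 to 4 with 1 library left out (4 without WT under TM replicate 1, 2 without WT under vehicle replicate 4 or WT under TM replicate 3 or 4). The labels' numbers did not warrant the block under TM. With it *cyp-25A3* was higher, and *cyp-25A2*, *cyp-33E2* and *cyp-35C1* were lower (limma, adjusted p = 0.0363, 0.00266 and 0.0355 for the lower genes). The same fit called 13.1% of all genes higher and 21.2% lower, and neither *cyp-* count exceeded its background. The interaction was 0, but 1 with the replicate block within genotype, and 0 with each library left out. The cause of these changes was not tested, except that the stricter filter leaves fewer genes to test. Leaving out a library from outside a comparison alters its calls through the shared spread and the adjustment, with the differences unchanged. Weights ranged from 0.252 to 5.11 among libraries. Most of these counts stand without the share of all genes called in the same fit. They show how the calls depend on the fit and are not read as results about the P450 genes. Where the share was taken, the shared block called 0.948% of all genes between TM and vehicle in *osm-3* mutants and 17.9% between genotypes under vehicle. Without a filter 8.54% and 14.2% were called between genotypes under vehicle and TM.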

Other observations

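Other steps of detoxification were counted by name. Of 24 tested UDP-glucuronosyltransferase genes (*ugt-*), which act in phase II, *ugt-22* (-0.66) and *ugt-63* (-0.86) fell under TM in WT, and *ugt-1* (0.63) rose under TM in *osm-3* mutants (limma, adjusted p = 0.0225, 0.00808 and 0.0159). These stand beside 0.729% of all genes lower in WT and 0.0486% higher in *osm-3* mutants. In *osm-3* mutants against WT, 1 *ugt-* gene was higher and 3 were lower under vehicle, beside 6.37% higher and 4.28% lower of all genes. Under TM 4 were higher and 2 lower, beside 9.5% and 9.74%, with *ugt-64* lower in both (-0.65 and -0.67). Of 15 tested efflux transporter genes (*pgp-*, *mrp-* and *haf-*) 0 passed between TM and vehicle with limma, while 2 and 2 had an unadjusted p under 0.05 in WT and *osm-3* mutants, beside 8.99% and 12% of all genes. Of these 15 genes 3 were higher in *osm-3* mutants under vehicle and 3 under TM, beside 6.37% and 9.5% of all genes in this direction, and 0 were lower. *pgp-14* (0.54 and 0.61) and *pgp-9* (0.90 and 1.27) passed in both, *pgp-2* (0.28) under vehicle and *pgp-4* (0.25) under TM. Of 5 tested glutathione S-transferase genes *gst-7* was lower in *osm-3* mutants under TM (-0.30, limma, adjusted p = 0.0183), beside 9.74% of all genes in this direction. Of 17 tested *dhs-*, *alh-* and *fmo-* genes of phase I, *alh-9* was lower under TM in WT (-0.51, limma, adjusted p = 0.0126) and under TM was higher in the mutants than in WT (0.43, limma, adjusted p = 0.00711). The shares of all genes in these directions were 0.729% and 9.5%.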
